A study of Homo sapiens with 4 samples.

Results

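The genes described here are 9 snoRNA host genes whose spliced transcripts are substrates of nonsense-mediated decay: GAS5, ZFAS1, SNHG1, SNHG5, SNHG6, SNHG7, SNHG8, SNHG12 and SNHG15. They were taken by symbol, through their Ensembl identifiers, under a rule that uses no measured value, although the set was proposed with earlier results of these data known. Of the 9, 8 were listed in all 4 tables, among 24039 genes that all 4 tables list, and SNHG8 (ENSG00000269893) has no row in the files used here. RNA-seq was performed on UM-UC-3 cells, a human cell line established from a bladder cancer, which had received 75 nM siRNA for 48 h. There was 1 library for each of 4 conditions, namely control siRNA, si-hnRNPK, si-PTBP1 and si-lncRNA-LBCS, and each of the knockdowns used 2 siRNAs given together. hnRNPK and PTBP1 are RNA-binding proteins of the hnRNP family, and lncRNA-LBCS is a long non-coding RNA.

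A snoRNA host gene carries small nucleolar RNAs inside its introns. After splicing, the introns are trimmed to mature snoRNAs, which guide ribose methylation (box C/D snoRNAs) or pseudouridylation (box H/ACA snoRNAs) of ribosomal and other RNAs. The joined exons of these 9 genes hold only short reading frames. Once such an RNA is exported, a ribosome stops early, upstream of exon junctions that still carry the exon junction complex, and UPF1 and the SMG proteins direct the RNA to decay. The level of the spliced RNA therefore depends both on transcription and on translation-coupled decay, and it is known to go up when translation or nonsense-mediated decay is blocked. Several of these genes also belong to the 5′TOP class, whose transcripts start with a C followed by a run of pyrimidines, as do the mRNAs of ribosomal proteins and elongation factors.

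The transcript starts are shown because the starts that RefSeq gives differ in this 5′TOP feature. Other annotated starts of the same member can differ, as given below. Each run below holds 10 bases before and 20 bases after the start that RefSeq gives on GRCh38.p14, and capitals mark a run of at least 4 pyrimidines that begins with C at the start itself.
ZFAS1: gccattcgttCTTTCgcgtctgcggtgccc
SNHG5: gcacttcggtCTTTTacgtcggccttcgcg
SNHG7: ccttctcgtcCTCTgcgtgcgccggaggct
SNHG12: gcttcagcgcCCTTTCTCCCCgccgcattc
SNHG1: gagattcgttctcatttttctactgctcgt
SNHG8: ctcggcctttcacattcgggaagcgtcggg
GAS5: tcatgaattcagatgtgtttattttggagc

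The windows lie at chr20:49278632-49278661 on the plus strand (ZFAS1), chr6:85678714-85678743 on the minus strand (SNHG5), chr9:136728165-136728194 on the minus strand (SNHG7) and chr1:28581854-28581883 on the minus strand (SNHG12). Those without the run lie at chr11:62855866-62855895 on the minus strand (SNHG1), chr4:118278752-118278781 on the plus strand (SNHG8) and chr1:173869026-173869055 on the minus strand (GAS5). Of these 7 members, 4 had the run, against 5.45% of 35116 RefSeq starts. No start is printed for SNHG6 and SNHG15. For GAS5 the choice of start decided this. In GENCODE release 29, 6 of its 29 transcripts start further downstream, at chr1:173867970-173867989 on the minus strand, where the first 20 bases hold the run.
GAS5, second start: CTTTTCgaggtaggagtcga

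Of all 9 members, 8 had at least 1 annotated GENCODE transcript that starts with C and at least 3 further pyrimidines. SNHG15 had none among 10 transcripts. For SNHG1 it was 1 of 25 transcripts and for SNHG8 1 of 5. The share of all genes with such a transcript was not computed, so this count has no background.

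The feature of decay substrates was read from the transcript with the most exons of each member. These transcripts had 4 to 13 exons, and the frame that opens at the first ATG was between 4 codons (SNHG8) and 117 codons (ZFAS1) long, with a median of 35. In 9 of 9 members at least 1 exon junction lay more than 50 bases after the stop codon. Other listed long non-coding genes with at least 4 exons had this in 95.5% of 1553 cases, so the arrangement is not particular to the members. GAS5 had 7 such junctions, SNHG1 had 6 and SNHG15 had 1.

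RefSeq places 34 snoRNA genes inside the bounds of the 9 members. GAS5, named for its accumulation in growth-arrested cells, holds 11 of them (10 of box C/D and SNORA103) and SNHG1, the U22 host gene, holds 9. ZFAS1, the antisense RNA at the start of ZNFX1, holds SNORD12, SNORD12B and SNORD12C. SNHG5 holds SNORD50A and SNORD50B, and SNHG6 holds SNORD87. SNHG7, SNHG8 and SNHG15 carry box H/ACA snoRNAs (SNORA17A and SNORA17B, SNORA24, and SNORA9), and SNHG12 carries both kinds. Positions on GRCh38 are given for the genes whose values the results turn on. GAS5 (ENSG00000234741) spans chromosome 1 from 173863900 to 173868882, SNHG5 (ENSG00000203875) spans chromosome 6 from 85660950 to 85678748, and SNHG12 (ENSG00000197989) spans chromosome 1 from 28578538 to 28583132. SNHG7 (ENSG00000233016) spans chromosome 9 from 136721366 to 136728184 and SNHG15 (ENSG00000232956) spans chromosome 7 from 44983023 to 44986961. These 5 genes lie on the minus strand.

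Depth was high and similar. The libraries held 54301152 to 70232674 reads on listed genes, so 1 read was worth 0.0142 to 0.0184 CPM (the reads of a gene divided by the library's total and scaled to a common size), and the lowest member value rested on 1136 reads. Levels carry 95% exact Poisson intervals and ratios 95% exact Clopper-Pearson intervals, which cover counting error only. With 1 library per condition no difference has a replicate check, and no p-value is given. HNRNPK was at 24.0% of control in si-hnRNPK and PTBP1 was at 32.0% of control in si-PTBP1. ENSG00000228412, the gene matched by the lncRNA-LBCS siRNAs, had 110 reads with control siRNA and 103 in the si-lncRNA-LBCS-labelled library, or 81.8% with an interval from 61.9 to 108%, so the library is referred to by its label throughout. Of 14 urothelial and epithelial markers, 10 or 11 were listed in a library and 3 or 4 reached 1 CPM, with summed levels from 152 to 215 CPM, mostly of KRT8 and KRT18. The uroplakins listed, KRT5, KRT19 and GATA3 were below 1 CPM in each library, while VIM, a mesenchymal marker, was at 1417 to 2343 CPM. Of 7 blood and endothelial markers 2 were listed, with summed levels from 0.0552 to 0.143 CPM.

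The median gene differed between the libraries, which matters for small changes. Over all genes tested, the median change against control was -0.11 in si-hnRNPK, 0.12 in si-PTBP1 and -0.01 in the si-lncRNA-LBCS-labelled library. A change is here the difference in log2(CPM + 1) for genes that reached 1 CPM in either library, a scale that understates changes of low genes. Scaling by median of ratios over 12362 genes moved the library factors by -0.11, 0.13 and -0.01 against control. The median of all genes is therefore given beside that of the members, and changes of single members are unadjusted unless stated.

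Among the hosts of mainly or only box C/D snoRNAs, GAS5 was at 196 CPM with control siRNA, 218 CPM in the si-lncRNA-LBCS-labelled library, 279 CPM in si-hnRNPK and 124 CPM in si-PTBP1. The 4 levels were separated by more than their counting intervals, and the highest was 2.25 times the lowest. ZFAS1 was at 147, 144, 179 and 112 CPM in the same order of libraries. Its si-hnRNPK level stood above and its si-PTBP1 level below the others, while control and the si-lncRNA-LBCS-labelled library overlapped. SNHG1 was at 165, 174, 204 and 148 CPM, again with si-hnRNPK at the top and si-PTBP1 at the bottom, and no neighbouring intervals overlapped. SNHG5 was at 77.1, 85.6, 89.7 and 49.4 CPM. Its si-PTBP1 level lay apart from the rest, and the si-hnRNPK interval overlapped that of the si-lncRNA-LBCS-labelled library. SNHG6 was at 282, 269.9, 289 and 237 CPM. This was the narrowest spread of the 8 members, with 1.22 times between the highest and the lowest level, with si-hnRNPK and control overlapping at the top and si-PTBP1 lowest.

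Among the hosts of box H/ACA snoRNAs, SNHG7 was at 51.2 CPM with control siRNA, 79.0 CPM in the si-lncRNA-LBCS-labelled library, 81.9 CPM in si-hnRNPK and 57.8 CPM in si-PTBP1. SNHG7 was the member with its lowest level in control, and its si-hnRNPK interval overlapped that of the si-lncRNA-LBCS-labelled library. SNHG12 was at 21.7, 26.8, 38.1 and 20.3 CPM, with control and si-PTBP1 overlapping at the bottom. SNHG15, a host with a short-lived RNA, was at 46.7, 47.5, 43.4 and 28.9 CPM. It was low in si-PTBP1, and the intervals of neighbouring levels overlapped among the other libraries. Counted over the members, 7 of 8 were highest in si-hnRNPK, with SNHG15 as the exception, and 7 of 8 were lowest in si-PTBP1, with SNHG7 as the exception. Of 14150 genes that reached 1 CPM in some library, 20.2% were highest in si-hnRNPK and 12.1% were lowest in si-PTBP1.

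**Figure D1:**
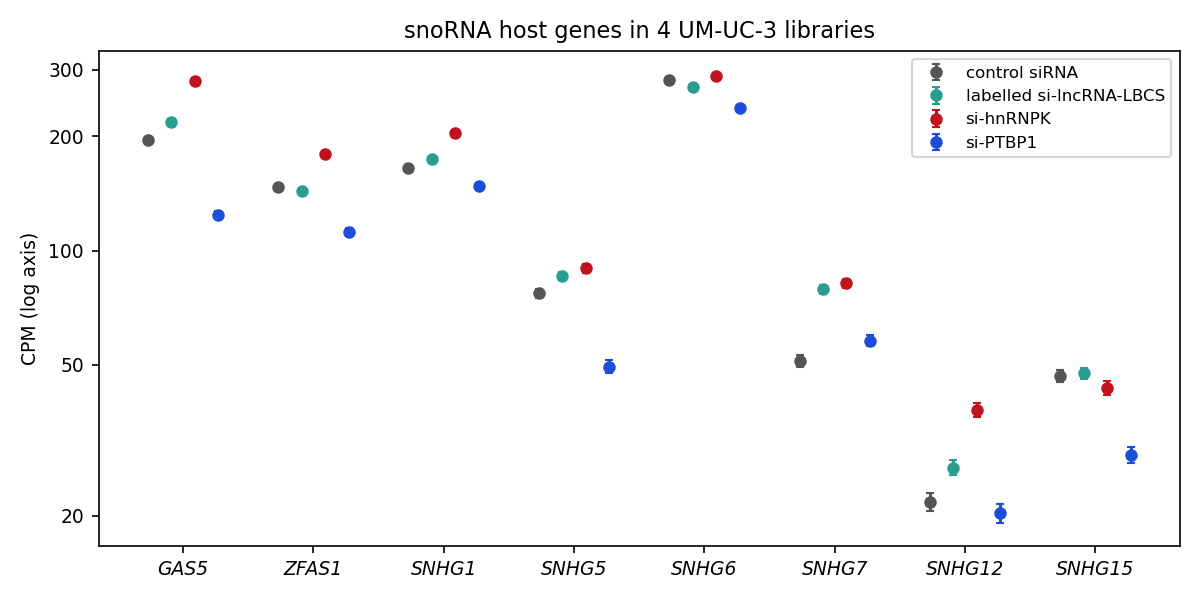
CPM on a log axis of the 8 listed snoRNA host genes in the 4 libraries, 1 point per library, with bars for the 95% exact Poisson interval of the reads (often smaller than the point). The si-hnRNPK point is the highest for 7 members and the si-PTBP1 point is the lowest for 7 members.

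Levels of different genes were compared per kilobase of exon. In the control library SNHG6 stood first at 226 CPM per kilobase of annotated exons, ahead of ZFAS1 at 65.6, GAS5 at 53.99, SNHG1 at 43.9 and SNHG5 at 27.5 CPM per kilobase. SNHG15 at 12.8, SNHG7 at 11.8 and SNHG12 at 5.09 CPM per kilobase came last. The order depended on the length used for pairs of neighbours. With the longest transcript as the length, SNHG5 (74.8 CPM per kilobase) passed SNHG1 (59.5) and SNHG7 (21.7) passed SNHG15 (15.002).

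In the knockdown of hnRNPK, 7 of 8 members were higher than with control siRNA by any amount, where 41.6% of 13672 genes were higher. SNHG12 showed the largest difference, at 175% of control (interval 164 to 188%) and a log2 change of 0.78. SNHG7 was at 160.0% of control (153 to 168%), a log2 change of 0.67 (0.40 against the geometric mean of the other 3 libraries), and GAS5 was at 142% (139 to 146%), a log2 change of 0.51. The changes of SNHG1, ZFAS1, SNHG5 and SNHG6 were 0.31, 0.28, 0.21 and 0.03. These 7 were also higher beyond the counting interval of the ratio, as were 32.4% of all genes. SNHG6 was so by a narrow margin (100.1 to 105%), and the separate intervals of its 2 levels overlapped, as stated above. SNHG15 was at 92.8% of control (87.8 to 98.0%), a log2 change of -0.11, which lay at the median of all genes and came to 0.004 with median-of-ratios scaling. The change of the members had a median of 0.30, against -0.11 over all genes.

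No member passed a change of 1 in either direction in si-hnRNPK, where 3.55% of all genes passed it upward and 3.93% downward. A rise of at least 1.5-fold was found for SNHG7 and SNHG12, against 9.89% of all genes. The balance over all genes moved with the scale, from 486 genes up and 537 down to 610 up and 374 down with median-of-ratios scaling. Under that scaling all 8 members were above control, with a median of 0.41.

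In the knockdown of PTBP1 the members stood on the other side of control. By any amount, 7 of 8 were lower, against 36.5% of 13855 genes, and 6 of 8 were lower beyond the counting interval, against 25.4% of all genes. SNHG15 was at 61.8% of control (58.1 to 65.7%), GAS5 was at 63.3% (61.5 to 65.2%) and SNHG5 was at 64.1% (61.1 to 67.2%). Their log2 changes were -0.68, -0.66 and -0.63, and at most 2.51% of all genes had a change as low as any of the 3. ZFAS1, SNHG6 and SNHG1 had changes of -0.39, -0.25 and -0.16. SNHG12 was at 93.4% with an interval from 86.2 to 101%, which was not separable from control by counting error. SNHG7 was the exception at 113% of control (108 to 119%), a change of 0.17 that lay 0.05 above the median of all genes and was -0.25 against the geometric mean of the other 3 libraries.

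A fall of at least 1.5-fold in si-PTBP1 was found for GAS5, SNHG5 and SNHG15, or 3 of 8 members, against 3.12% of all genes. No member passed a change of 1, where 2.92% of all genes passed it upward and 0.613% downward. The median change of the members was -0.32, against 0.12 over all genes. Median-of-ratios scaling gave 256 up and 132 down past 1, in place of 404 and 85, and the median of the members was -0.44 with the same 7 members lower.

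In the si-lncRNA-LBCS-labelled library SNHG7 and SNHG12 differed most from control. SNHG7 was at 154% of control (148 to 161%), a log2 change of 0.62, and 3.51% of all genes had a change at least as high. Against the geometric mean of the other 3 libraries its change was 0.34, and that of SNHG12 was 0.06. It was the member past a 1.5-fold rise, against 4.14% of all genes. SNHG12 followed at 123% (115 to 132%), a change of 0.29. GAS5, SNHG5, SNHG1 and SNHG15 had changes of 0.15, 0.15, 0.08 and 0.02, while ZFAS1 and SNHG6 had -0.03 and -0.06. In all, 6 of 8 were higher by any amount, against 48.2% of 13492 genes, with a median of 0.11 against -0.01 over all genes. A change of at least 1 was found for no member, and for 0.378% of all genes upward and 1.01% downward.

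**Figure D2:**
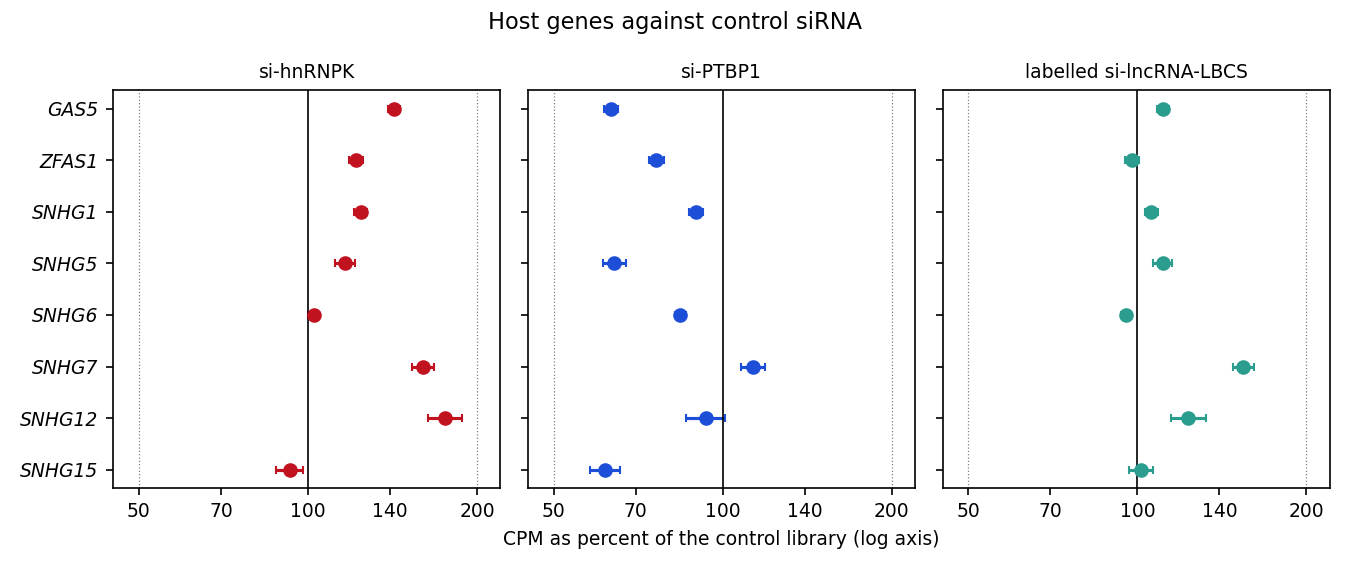
CPM of each host gene as a percentage of the control library on a log axis, in 3 panels for the knockdown libraries, with 95% exact Clopper-Pearson intervals of the reads. The solid line marks the control level and the dotted lines mark 50 and 200%, which no member reached.

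The 3 comparisons above share the control library, so a high or low control value would enter each of them. The si-hnRNPK and si-PTBP1 libraries were therefore also compared directly, a comparison added after the levels had been seen. All 8 members were higher in si-hnRNPK, against 30.4% of 13895 genes. GAS5 was at 225% of its si-PTBP1 level (219 to 231%), a log2 change of 1.16, and was the member past a change of 1, as were 2.37% of all genes upward. SNHG12 and SNHG5 followed with changes of 0.88 and 0.85, and SNHG6 had the smallest at 0.28. The median of the members was 0.62, against -0.24 over all genes. With median-of-ratios scaling GAS5, SNHG12 and SNHG5 passed 1, at 1.40, 1.11 and 1.08, and the genes past 1 were 530 up and 369 down in place of 330 and 840. As both libraries also enter the comparisons with control, this is another view of the same libraries and no further evidence.

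**Figure D3:**
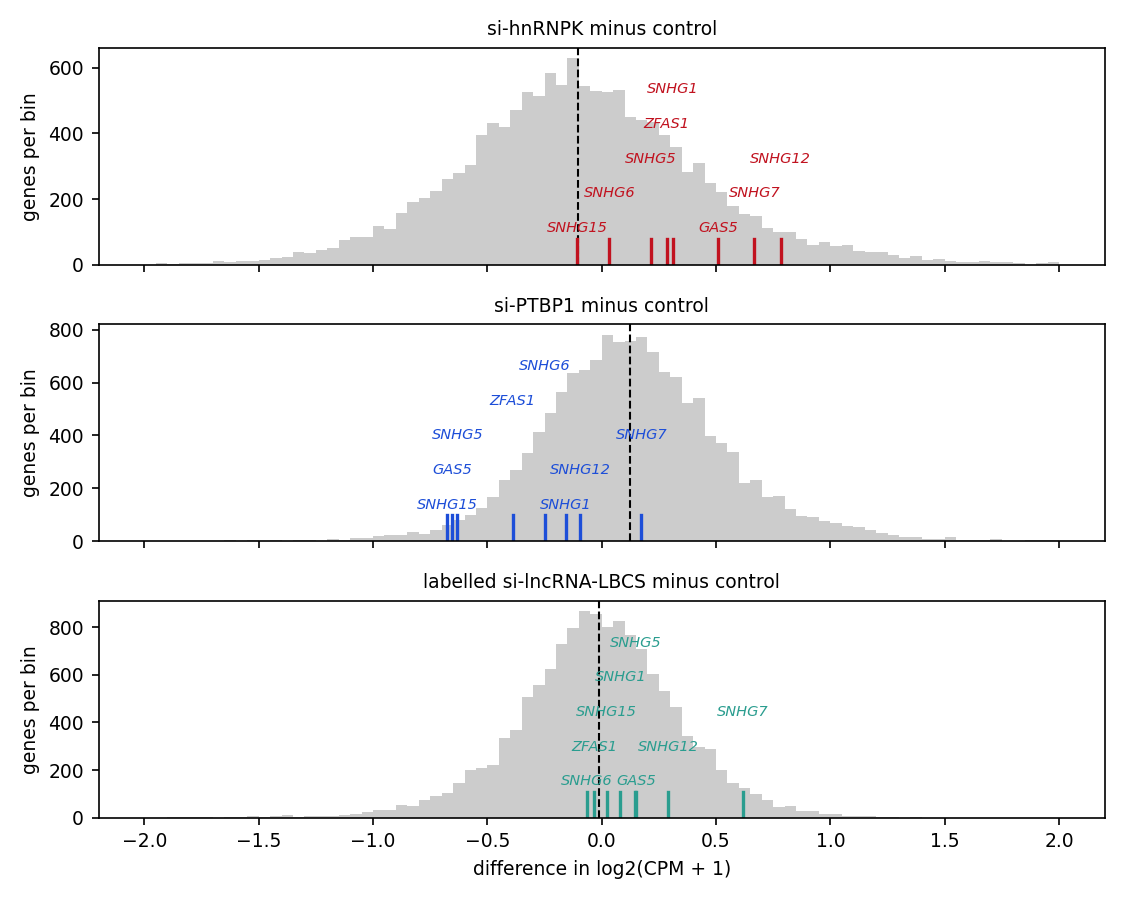
Histograms of the difference in log2(CPM + 1) against control over all genes tested (grey, bins of 0.05, genes beyond 2 in either direction not drawn), with the median of all genes as a dashed line and the members as coloured ticks. In si-hnRNPK the members lie at or to the right of the median of -0.11, and in si-PTBP1 the members other than SNHG7 lie to the left of the median of 0.12.

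The factors of nonsense-mediated decay were measured as 14 genes, none of which passed a change of 1 in any library. In si-hnRNPK 11 of 14 were lower than control, against 58.4% of all genes, with a median of -0.42 against -0.11 over all genes. UPF3A and UPF3B, which link UPF2 to exon junctions, had changes of -0.65 and -0.63. SMG9 and SMG1, the regulator and the kinase that phosphorylates UPF1, had changes of -0.53 in both cases. SMG6, the endonuclease, had -0.49, GSPT1, the release factor eRF3a, had -0.45, and UPF1, the central helicase, went from 128 to 97.2 CPM (-0.39). NBAS, DHX34 and UPF2 had changes of -0.18, -0.15 and -0.04, ETF1 was level at 412 CPM in both, and SMG8 and SMG5 were higher by 0.08 and 0.29.

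In si-PTBP1 the same list was split, with 8 higher and 6 lower, where 63.5% of all genes were higher. The median was 0.02 against 0.12 over all genes, and UPF1 was at 122 CPM. With median-of-ratios scaling 1 was higher and 13 were lower, so the split depends on the scale. GSPT1 had the largest difference at -0.46, followed by UPF3B at -0.31 and UPF3A at 0.24. In the si-lncRNA-LBCS-labelled library 12 of 14 were lower, against 51.8% of all genes, with a median of -0.14. There UPF3B and SMG1 had -0.62 and -0.56. The exon junction complex gave 7 measured genes, among them UPF3B, which is also on the list of decay factors. Of the 7 genes, 5 were lower in si-hnRNPK, against 58.4% of all genes, and 3 in si-PTBP1, against 36.5%. With median-of-ratios scaling 5 genes of the complex were lower in each. MAGOH and MAGOHB, its 2 near-identical subunits, whose reads may be shared between them, had changes of -0.90 and -0.78 in si-hnRNPK, and CASC3, another core subunit, had 0.42 in si-PTBP1.

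mRNAs known to be degraded by nonsense-mediated decay were listed as 10 genes. In si-hnRNPK 9 of 10 were higher, with a median of 0.55, and 2 rose by at least 1. ATF3, a stress-induced transcription factor, went from 1.71 to 11.99 CPM, a change of 2.26. GABARAPL1, an autophagy protein, went from 4.32 to 11.7 CPM (1.25). MAP3K14, the NF-kappaB-inducing kinase, was the exception at -0.94. In si-PTBP1 7 of 10 were higher with a median of 0.05, or 4 of 10 with median-of-ratios scaling, and GADD45A, a growth arrest and DNA damage gene, was lower at -0.61. In the si-lncRNA-LBCS-labelled library 8 of 10 were higher, against 48.2% of all genes, with a median of 0.17. There GADD45A fell from 48.5 to 20.8 CPM (-1.19).

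Other non-coding snoRNA hosts were compared as the class nearest to the members, with 15 of 19 listed. In si-hnRNPK 10 of 15 were higher, against 41.6% of all genes, with a median of 0.27. SNHG32 and EPB41L4A-AS1 had the largest values at 0.73 in both cases. SNHG17 and SNHG16 were lower, at -0.29 and -0.22. In si-PTBP1 8 of 15 were lower, against 36.5% of all genes, or 12 of 15 with median-of-ratios scaling. The median of the list was -0.08, against 0.12 over all genes. SNHG16 went from 253 to 161 CPM (-0.65) and SNHG19 from 31.0 to 20.5 CPM (-0.57), whereas SNHG32 and SNHG10 had changes of 0.01 and 0.03. SNHG14, named after its values were seen since it is below 10 CPM, had the largest value upward, from 3.05 to 5.51 CPM (0.69). In the si-lncRNA-LBCS-labelled library 12 of 15 were higher, against 48.2% of all genes, with a median of 0.21.

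The coding snoRNA hosts, most of which make ribosomal proteins or translation factors, gave 48 measured genes. They were evenly split in si-hnRNPK, with 23 higher and 25 lower (26 and 22 with median-of-ratios scaling) and a median of -0.06. Over all genes 41.6% were higher there, with a median of -0.11. EIF4A2, an RNA helicase of translation initiation, and RPS12 had the largest values upward (0.79 and 0.55), and NCL, the nucleolar protein nucleolin, and EIF4G2 downward (-0.96 and -0.65). In si-PTBP1 43 of 48 were lower, against 36.5% of all genes, with a median of -0.30 against 0.12 over all genes. RPL3 went from 1185 to 633 CPM (-0.90) and RPL13A from 3503 to 2197 CPM (-0.67), while PRRC2A and RPS2 were higher by 0.13 and 0.12. No gene of either host list passed a change of 1 in any comparison with control.

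The 5′TOP mRNAs of translation, a class defined by the start feature described above, were tested as 19 genes. Their own starts were not examined. RACK1, EEF2, EEF1B2, EEF1D and TPT1 are also on the list of coding hosts, so these lists are not separate sets. In si-PTBP1 18 of 19 were lower, against 36.5% of all genes, with a median of -0.37 against 0.12 over all genes. EIF4B, an initiation factor, went from 1513 to 992 CPM (-0.61) and TPT1, which encodes the translationally controlled tumour protein, from 1580 to 1039 CPM (-0.60), with EIF3F the exception at 0.04. In si-hnRNPK 10 were higher and 9 lower, with a median of 0.04, or 15 and 4 with median-of-ratios scaling. Over all genes 41.6% were higher in that library. There EEF2 and EEF1A1, the elongation factors, had 0.53 and 0.40, and PABPC1, the poly(A)-binding protein, and EEF1B2 had -0.85 and -0.57. In the si-lncRNA-LBCS-labelled library 9 were higher and 10 lower, where 48.2% of all genes were higher.

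**Figure D4:**
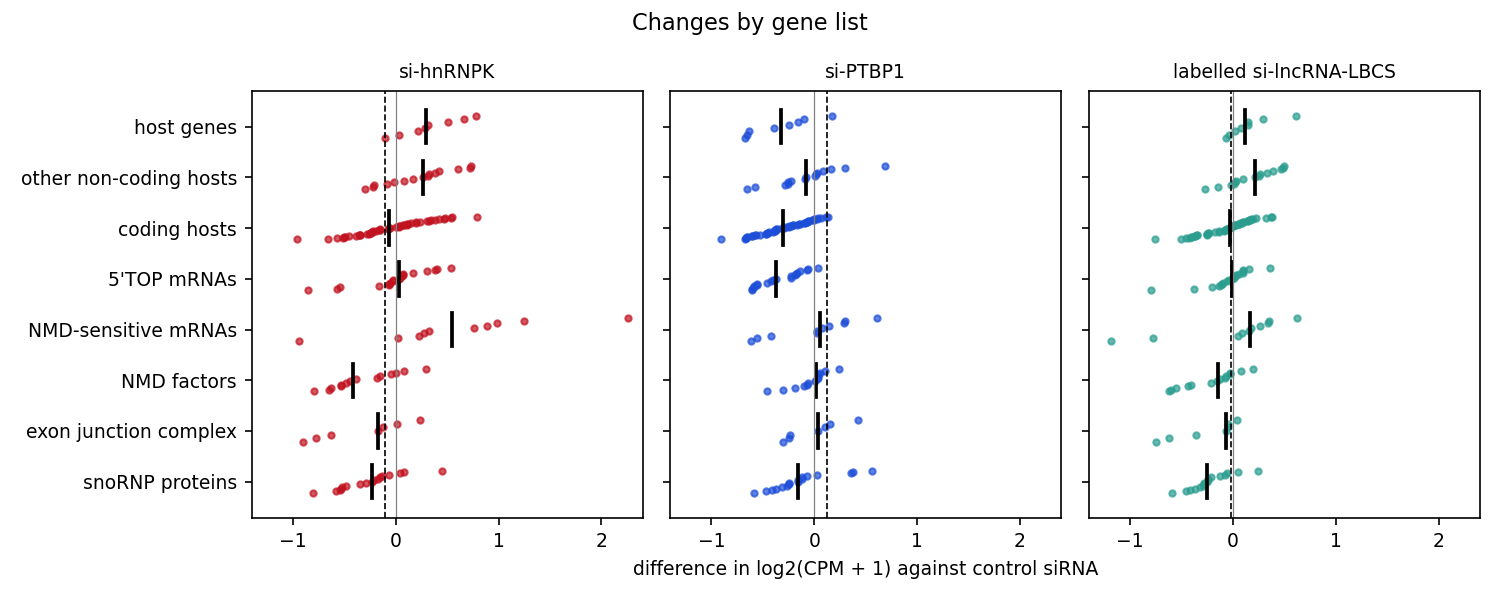
Difference in log2(CPM + 1) against control for each tested gene of 8 lists in 3 panels, with a black bar at the median of the list, a dashed line at the median of all genes and a grey line at 0. In si-PTBP1 the bars of all 8 lists lie to the left of all genes (0.12). The lowest are those of the 5′TOP mRNAs (-0.37), the host genes (-0.32) and the coding hosts (-0.30). In si-hnRNPK the NMD-sensitive mRNAs (0.55), the host genes (0.30) and the other non-coding hosts (0.27) lie to the right of all genes (-0.11). The bars of the 5′TOP mRNAs (0.04) and the coding hosts (-0.06) also lie to the right, by less. The lists of coding hosts and 5′TOP mRNAs share genes, as do those of NMD factors and exon junction complex, and of coding hosts and snoRNP proteins.

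Cell cycle and interferon genes differed in the same libraries, and their part in the member changes was not tested. All 17 proliferation genes were lower than control in si-hnRNPK, 9 of them by at least 1, and their summed level was 1838 CPM against 4316 CPM with control siRNA. MKI67, the Ki67 antigen, had a change of -2.65. In si-PTBP1 the same 17 were lower as well, none by 1 or more, with a sum of 3270 CPM, and in the si-lncRNA-LBCS-labelled library 13 of 17 were lower with a sum of 3713 CPM. All 13 interferon-stimulated genes were higher in si-hnRNPK, 11 of them by at least 1, led by IFIT1 (4.50), and their summed level was 2968 CPM against 412 CPM. It was 328 CPM in si-PTBP1, where 8 of 11 were lower, and 337 CPM in the si-lncRNA-LBCS-labelled library, where 6 of 11 were lower. A bulk library averages over its cells, so a change in the share of cells and a change per cell cannot be told apart.

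Genes next to or overlapping the members bear on how their reads were counted, since the strand used in counting is not given in the sources used here. ZNFX1, an RNA helicase gene that shares 11.1% of the exonic bases of ZFAS1 on the opposite strand and is itself on the interferon list, went from 131 to 241 CPM in si-hnRNPK. The share of its reads in the ZFAS1 value was not tested. MCMDC2 shares 29.3% of the SNHG6 exons and FAM69B shares 25.2% of the SNHG7 exons, but they were at 1.79 to 2.43 CPM and 3.59 to 4.18 CPM, far below the members. TRNAU1AP overlaps SNHG12 by 8 bases and was lower in si-hnRNPK (22.3 and 13.5 CPM), where SNHG12 was higher.

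Within 250 kb of a member, 12 genes of the list of neighbours were listed and 10 were tested. Of these 7 were higher in si-hnRNPK and 4 in si-PTBP1, with medians of 0.12 and -0.05. Of all genes, 41.6% and 63.5% were higher in these libraries, with medians of -0.11 and 0.12. ZBTB37, which overlaps the bounds of GAS5, had changes of -0.56 in si-hnRNPK and 0.60 in si-PTBP1, each opposite to GAS5. SLC3A2 and WDR74, beside SNHG1, had 0.44 and 0.004 in si-hnRNPK and -0.04 and -0.17 in si-PTBP1. SYNCRIP and SNX14, beside SNHG5, had -0.36 and 0.23 in si-hnRNPK and -0.15 and 0.46 in si-PTBP1. CCM2 and TBRG4, beside SNHG15, had 0.18 and -0.06 in si-PTBP1, where SNHG15 had -0.68, and 0.21 and 0.02 in si-hnRNPK. PRSS12, beside SNHG8, had 0.34 in si-hnRNPK and 0.24 in si-PTBP1. TCF24 and MYO1G were below 1 CPM in each library.

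The intronic snoRNAs themselves were hardly measured. GENCODE release 29 annotates 23 snoRNA genes inside the members, of which 4 were listed, and all were low. That annotation holds none inside GAS5, so the snoRNAs that RefSeq places there were not looked for. In ZFAS1, SNORD12 was at 2.80 to 4.33 CPM, SNORD12B at 2.89 to 4.73 CPM and SNORD12C at 1.69 to 3.57 CPM over the 4 libraries. SNORD12B and SNORD12C had their highest values in si-hnRNPK and SNORD12 in the si-lncRNA-LBCS-labelled library. In SNHG12, SNORD99 was at 0.884 to 1.24 CPM. Its lowest value was in si-hnRNPK (48 reads, against 66 with control siRNA), the library where SNHG12 was highest. No counting interval was computed for the snoRNAs, so these orders of low counts are not shown to exceed counting error. Reads of the unspliced host RNA and of the snoRNA cannot be told apart here.

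Matches to the siRNA seeds were looked for in the longest transcripts of the 9 members, 15.4 kb in all, because an siRNA can lower other RNAs through guide bases 2 to 8. The siRNAs against PTBP1 and hnRNPK are shown by their sense strand, and capitals mark the 7 bases that pair with the guide bases 2 to 8 and were searched for in the transcripts.
si-PTBP1, first siRNA: gccucaacgucAAGUACAatt
si-PTBP1, second siRNA: cccucauugacCUGCACAatt
si-hnRNPK, siRNA-1: ggguuguagagUGCAUAAatt
si-hnRNPK, siRNA-2: gccuccaucuaGAAGAGAutt

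Neither PTBP1 seed had a match in any member, where all longest transcripts hold 0.0781 and 0.114 matches per kilobase. For hnRNPK, the seed of siRNA-1 had 1 match in ZFAS1 and the seed of siRNA-2 had 1 match each in SNHG1 and SNHG12. Per kilobase this was 0.065 and 0.130 in the members, against 0.0445 and 0.178 in all longest transcripts. The siRNAs against lncRNA-LBCS had 3 seed matches, in SNHG1 and SNHG15. Their rates were 0.130 and 0.065 per kilobase, against 0.0465 and 0.0995 in all longest transcripts. No member held a full match to the paired bases of any siRNA. Other transcripts of the members were not searched, and the part of the seeds in the changes was not tested.

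The genes whose pattern lay nearest to the median changes of the members were taken from 8326 other genes that reached 10 CPM in every library, by the Euclidean distance over the 3 log2 changes against control. They were OAZ1, which encodes ornithine decarboxylase antizyme, RPS14, TTC38, RPLP0 and BLOC1S2, at distances from 0.02 to 0.07. OAZ1 was at 449.9 CPM with control siRNA, 481 CPM in the si-lncRNA-LBCS-labelled library, 555 CPM in si-hnRNPK and 358 CPM in si-PTBP1. The ribosomal protein gene RPLP0 was at 3405, 3649, 4038 and 2751 CPM in the same order. Of the genes compared, 490 lay nearer to that median pattern than the median member did (distance 0.36).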

How the data were processed

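RNA-seq libraries of UM-UC-3 cells were compared, 1 per condition. The authors deposited CPM per gene for each library, with Ensembl identifiers, made from 100-base paired-end reads. The submitters' processing notes name hg19, while the aligner, the counter, the annotation and the counting strand are not given in the sources used here. The deposited CPM came out as whole reads for 100% of genes with reads (tolerance 0.01 read). Genes without reads carry a placeholder of 0.0046 read in the control library and of 0.5 read in each knockdown library. Changes are differences in log2(CPM + 1) for genes that reached 1 CPM in either library of a pair, with a threshold of 1. Intervals are 95% exact intervals of the reads. With 1 library per condition there was no test, and a count test with replicates was not possible. Exon lengths, transcripts and neighbours are from GENCODE release 29 and starts from RefSeq (promoter entries of 7 members used), on GRCh38, joined by identifier or symbol. No coordinates of hg19 were used.

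The members and gene lists were chosen with earlier results of these data known. The genes of the lists of decay factors and of neighbours are named, except for items not reported here and 1 gene of the latter list that lies far from any member. Of other lists, the 2 largest rises and falls at 10 CPM or more in si-hnRNPK and si-PTBP1, and genes past the threshold, were eligible. The alternatives were a 1.5-fold threshold, a filter of 5 CPM or none, a pseudocount of 0.1, scaling by median of ratios, the other 3 libraries' geometric mean as the reference, and an exact binomial test (Benjamini-Hochberg q of at most 0.05) added to the threshold. The scripts were tested on simulated data. The calculations ran in scipy 1.17.1, pandas 2.3.3 and numpy 2.4.6 under Python 3.11.15, with matplotlib 3.10.9.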

Additional observations from a re-analysis of the deposited data

How the results depend on the processing

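The count of members past a change of 1 was 0 in each comparison with control under every alternative except the 1.5-fold threshold, which gave 2 in si-hnRNPK, 3 in si-PTBP1 and 1 in the si-lncRNA-LBCS-labelled library. Between si-hnRNPK and si-PTBP1 the count of 1 became 3 with median-of-ratios scaling and 4 at 1.5-fold. The median change of the members moved from 0.30 to 0.41 in si-hnRNPK, from -0.32 to -0.44 in si-PTBP1 and from 0.62 to 0.86 between both with median-of-ratios scaling, and to 0.39 and -0.46 in the first 2 against the geometric mean of the other 3 libraries. Of 32 member changes, the sign turned for 1 with that scaling (SNHG15 in si-hnRNPK). Against the geometric mean it turned for 4 of 24, namely SNHG15 in si-hnRNPK, SNHG7 in si-PTBP1, and ZFAS1 and SNHG6 in the si-lncRNA-LBCS-labelled library. The pseudocount and the filters turned none. Other member changes that moved by over 1.5 times against the geometric mean were SNHG7 (0.67 to 0.40), SNHG5 (0.21 to 0.38) and SNHG6 (0.03 to 0.14) in si-hnRNPK, SNHG12 (-0.09 to -0.45) and SNHG1 (-0.16 to -0.29) in si-PTBP1, and in the si-lncRNA-LBCS-labelled library SNHG7 (0.62 to 0.34), SNHG12 (0.29 to 0.06), SNHG5 (0.15 to 0.29), SNHG1 (0.08 to 0.03) and SNHG15 (0.02 to 0.28). The cause was not tested.

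The count of all genes past 1 rose from 1023 to 1785 in si-hnRNPK, from 489 to 966 in si-PTBP1, from 187 to 518 in the si-lncRNA-LBCS-labelled library and from 1170 to 2003 between si-hnRNPK and si-PTBP1 with a pseudocount of 0.1. At 1.5-fold these counts were 3517, 2105, 1333 and 4076, and against the geometric mean the first 3 were 679, 310 and 101. The binomial test, which compares reads of 2 libraries and gave a q of at most 0.05 for 10870 of 13672 genes in si-hnRNPK, left them as they were and is no check of them at this depth.

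No paired analysis was possible because each condition has 1 library and the labels carry no replicate numbers, so no replicate was left out either. The threshold and binomial alternatives give no value for a median or a single change, and the geometric mean was not used between si-hnRNPK and si-PTBP1, since its reference holds si-PTBP1 itself.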

Other observations

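Proteins that assemble on snoRNAs were measured as 17 of 18 genes, and none passed a change of 1 against control. NOP56 and DKC1 are also on the list of coding hosts. In si-hnRNPK 14 of 17 were lower, with a median of -0.23, in si-PTBP1 13 of 17, with a median of -0.16, and in the si-lncRNA-LBCS-labelled library 15 of 17, with a median of -0.25. Of all genes, 58.4%, 36.5% and 51.8% were lower in the same order of libraries, with medians of -0.11, 0.12 and -0.01. PIH1D1, a subunit of the R2TP assembly complex, was at 80.3 CPM with control siRNA, 62.0 CPM in the si-lncRNA-LBCS-labelled library, 45.7 CPM in si-hnRNPK and 53.3 CPM in si-PTBP1. NOP58 and NOP56, core proteins of box C/D particles, had changes of -0.54 and -0.35 in si-hnRNPK and -0.37 and -0.47 in si-PTBP1. NOLC1, a nucleolar chaperone of snoRNA particles, was higher than control in each knockdown library, with changes of 0.45 in si-hnRNPK, 0.56 in si-PTBP1 and 0.24 in the si-lncRNA-LBCS-labelled library, and NUFIP1, an assembly factor, had 0.35 in si-PTBP1. The 3 comparisons share the control library.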
